A study of Mus musculus with 4 samples.

Results

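Pleiotrophin (Ptn) and midkine (Mdk) are secreted growth factors that bind heparin, and syndecans and glypicans are the cell surface proteoglycans whose heparan sulphate chains such factors bind. The 10 genes described here, Ptn, Mdk, Sdc1, Sdc2, Sdc3, Sdc4, Gpc1, Gpc3, Gpc4 and Gpc6, were chosen by their names as a family and with their adult minus embryonic log2 differences on these arrays already known, and were found through the RefSeq accession of each probe. They have 12 of the 28026 probes with a gene name, Ptn and Mdk with 2 probes each and the other genes with 1, and are 10 of 21154 named genes. Messenger RNA was measured in thymospheres, the floating aggregates that dissociated thymus cells form in dishes to which they cannot attach, which the labels trace to thymic epithelial stem cells. Adult spheres came from C57Bl6/N mice of 5 to 6 weeks and embryonic spheres from C57Bl6/N embryos at day 14.5, and both grew for 7 days in a medium with B27 supplement, hydrocortisone, insulin, EGF and basic FGF. Each group had 2 samples, each on its own 1-colour array, so the comparison of adult with embryonic spheres rests on 4 arrays of 1 slide.

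Syndecans span the membrane and glypicans are held to it by a lipid anchor, and both carry heparan sulphate, a sulphated sugar chain that concentrates heparin-binding proteins at the cell surface and presents them to their receptors. Basic FGF, a component of the culture medium, is one such protein. Pleiotrophin and midkine are each other's only close relatives, are made widely in embryonic organs and far less in most adult tissues, and act through the receptor phosphatase Ptprz1, integrins and nucleolin among other receptors. Glypicans also shape the range of hedgehog, Wnt and BMP signals.

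Between 35.7% and 71.6% of the spots were well above background, Feature Extraction's call that a spot exceeds its background. The shares were 71.6% and 49.6% for adult spheres, against 48.3% and 35.7% for embryonic spheres. Values below are log2 signals relative to the 75th percentile of the array's own spots, and differences are adult minus embryonic. On this scale most genes stood lower in adult spheres: the median difference of the 13660 genes tested was -0.80, so each difference can be read against 0 and against -0.80. Nothing in the labels says which samples were separate cultures, so errors and p-values reflect no more than the spread among these arrays, which may be technical, and slide position and group cannot be told apart. Of 10 thymic epithelial markers, 7 passed that call in both adult samples and 8 in both embryonic samples, while Psmb11 and Aire, genes of mature cortical and medullary epithelium, passed it on at most 1 array. All 10 fibroblast markers passed it in both adult samples and 9 in both embryonic samples, so spheres of both ages held transcripts of epithelium and of mesenchyme. Fewer cells of a type and less RNA per cell cannot be told apart in such bulk samples.

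All 10 genes passed the background call on all 4 arrays, and 9 of the 10 had a lower mean in adult than in embryonic spheres. So did 9711 of the 13660 genes tested, and 8452 of the 9598 above background on all 4 arrays. Ptn stood farthest apart, followed by Mdk, Gpc3 and Sdc4, while Sdc1 and Sdc2 lay near 0. The 2 adult arrays were both below the 2 embryonic arrays for 8 of the 10 genes, Sdc1 and Sdc2 being the exceptions, where 61.5% of all genes measured on 4 arrays showed this order and 22.6% the opposite one, which none of the 10 showed. In limma's fit 5 of the 10 passed as lower in adult spheres (Ptn, Mdk, Sdc4, Gpc3 and Gpc6) and 0 as higher, against 36.2% of all genes lower and 17.5% higher (53.7% in either direction). With each array centred on the tested genes, 968 genes in all were lower and 2797 higher, in place of 4939 and 2390. Among genes well above background on all 4 arrays, as these 10 are, 43.8% were called lower in adult spheres and 75.5% had both adult arrays below both embryonic ones. Since the genes were chosen with results of this comparison known, nothing is read from these counts, and the differences are given as a description with their standard errors. The median difference over the 10 genes was -1.03, against -0.80 over all genes tested and -0.97 over those above background on all 4 arrays.

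**Figure D1:**
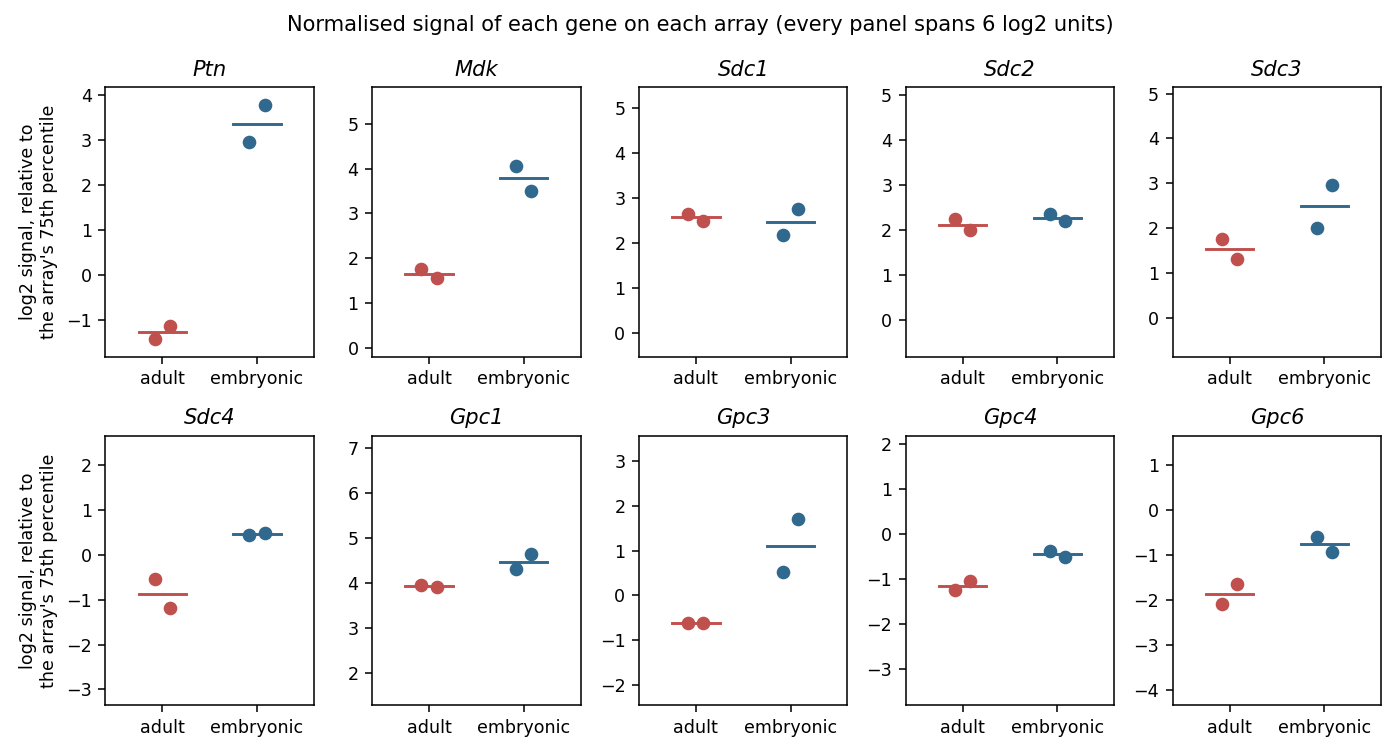
Log2 signal relative to the array's 75th percentile (vertical axis, 6 units in each panel) of the 10 genes on the adult (left, red) and embryonic (right, blue) arrays; points are arrays and lines are means of 2 arrays. Ptn shows the widest gap, at -1.42 and -1.14 on the adult arrays against 2.96 and 3.78 on the embryonic arrays, and the groups overlap for Sdc1 and Sdc2.

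Pleiotrophin was the gene of this family with the widest gap. Ptn gave log2 signals of -1.42 and -1.14 on the adult arrays, against 2.96 and 3.78 on the embryonic arrays. Both adult values lay far below either embryonic value, and the difference of -4.65 (SE 0.40) corresponds to 25.1-fold more signal in embryonic spheres. On the probe tested, this difference ranked 21 from the lowest among those of the 13660 tested genes. In raw terms the adult spots were dim, at signals of 49.4 and 29.9, which are 3.09 and 2.25 times the lowest signal called well above background on their arrays, against 984 and 844 on the embryonic arrays. A second Ptn probe, brighter on each array where it was measured and not ranked, showed the same direction with a smaller gap of 11.1-fold. It read 0.31 on adult array 1, against 3.37 and 4.20 on the embryonic arrays, and its spot on adult array 2 was marked as an outlier and left out, which gives a difference of -3.47. With that spot kept the reading on adult array 2 was 0.62 and the difference -3.32.

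Midkine followed the same order with a smaller gap. Mdk read 1.77 and 1.55 on the adult arrays, against 4.07 and 3.50 on the embryonic arrays, a difference of -2.12 (SE 0.35) or 4.36-fold more signal in embryonic spheres. The groups did not overlap. Its other probe gave almost the same difference, -2.10, and on that probe too both adult arrays lay below both embryonic arrays. Within an array the scaling cancels from the Ptn value minus the Mdk value. That quantity was -3.19 and -2.69 on the adult arrays, against -1.11 and 0.28 on the embryonic arrays. For these probes the gap between ages was thus wider for Ptn than for Mdk by 2.53 log2 units under any shift of a whole array. The size of this excess depends on the probe and the background correction. The other Ptn probe gave a difference of -3.47, and with normexp background correction Ptn stood at -3.21 and Mdk at -1.90. Normexp was run here and below with an offset of 50 signal units, which by itself shrinks the log2 differences of dim spots.

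**Figure D2:**
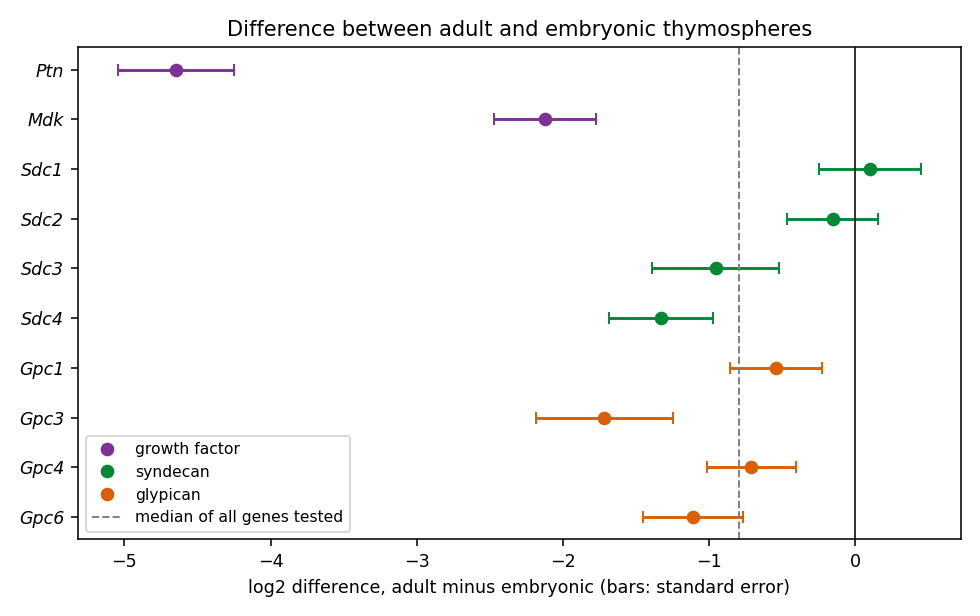
Log2 difference, adult minus embryonic (horizontal axis), of the 10 genes with standard errors from limma, coloured by role; the solid line marks 0 and the dashed line the median of all genes tested, -0.80. Ptn at -4.65 and Mdk at -2.12 lie left of the dashed line, and Sdc1 at 0.10 and Sdc2 at -0.15 lie right of it.

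Promoter sequences are shown for the genes with a RefSeq window that stood farthest apart between the ages in each role (Ptn, Sdc4 and Gpc3), with that of Sdc1, which lay near 0, for contrast. Windows of 300 bases (250 before and 50 after the start site, RefSeq, GRCm38.p6) were given for 6 of the 10 genes. They are written 5′ to 3′ on the gene's strand, and capitals mark a GC box (GGGCGG) or a CCAAT box (CCAAT), on either strand, with no overlap between matches.
Ptn, chr6:36810130-36810429, minus strand: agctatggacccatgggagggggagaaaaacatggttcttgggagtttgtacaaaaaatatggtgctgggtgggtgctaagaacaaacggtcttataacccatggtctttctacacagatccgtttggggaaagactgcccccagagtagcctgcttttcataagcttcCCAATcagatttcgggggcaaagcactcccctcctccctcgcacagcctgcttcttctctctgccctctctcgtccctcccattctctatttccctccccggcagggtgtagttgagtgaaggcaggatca
Sdc4, chr2:164443139-164443438, minus strand: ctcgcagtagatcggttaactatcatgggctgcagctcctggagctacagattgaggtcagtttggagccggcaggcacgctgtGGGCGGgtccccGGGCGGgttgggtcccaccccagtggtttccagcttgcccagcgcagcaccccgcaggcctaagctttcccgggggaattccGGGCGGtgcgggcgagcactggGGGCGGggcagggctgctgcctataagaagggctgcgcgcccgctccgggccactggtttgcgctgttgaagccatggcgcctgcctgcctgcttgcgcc
Gpc3, chrX:52613925-52614224, minus strand: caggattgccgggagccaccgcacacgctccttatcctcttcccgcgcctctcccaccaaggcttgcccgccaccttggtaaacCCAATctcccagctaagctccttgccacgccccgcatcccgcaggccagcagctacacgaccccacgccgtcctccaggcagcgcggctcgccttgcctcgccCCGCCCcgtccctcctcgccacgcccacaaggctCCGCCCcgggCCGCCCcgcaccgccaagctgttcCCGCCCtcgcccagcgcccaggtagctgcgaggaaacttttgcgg
Sdc1, chr12:8771146-8771445, plus strand: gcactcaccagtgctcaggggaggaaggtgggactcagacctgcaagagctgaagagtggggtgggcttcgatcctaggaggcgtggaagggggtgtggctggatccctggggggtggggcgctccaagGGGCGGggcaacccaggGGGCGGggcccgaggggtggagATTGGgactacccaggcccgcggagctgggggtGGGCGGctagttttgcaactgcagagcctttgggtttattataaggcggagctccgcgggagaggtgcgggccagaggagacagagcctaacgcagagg
The Ptn window stands out among the 6 by its composition, with 52% G and C and 6 CpG dinucleotides, close to the median of 52.7% over all 32851 windows. The other 5 hold 66.3% to 77.7% G and C and 14 to 44 CpG. Ptn has no GC box in its window and 1 CCAAT box starting 81 bases before the start site. Sdc4 and Gpc3 have 4 GC boxes each and Sdc1 has 3, and 35.7% of all windows hold at least 1. A CCAAT box is present in the Ptn, Gpc3 and Sdc1 windows and in 37.4% of all windows. The TATA box (TATAAA) and the E-box (CACGTG), searched on both strands, matched none of the 6 windows, against 13.6% and 7.15% of all windows. A match describes these letters and is not a site of binding, and the lack of one says only that the letters are not in this window.

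The 4 syndecans did not share one pattern. Sdc4, a widely expressed syndecan of focal adhesions, read -0.55 and -1.19 on the adult arrays, against 0.44 and 0.48 on the embryonic arrays. Both adult values were below both embryonic ones, with a difference of -1.33 (SE 0.35), which shrank to -0.54 with normexp background correction and to -0.65 with centring on the tested genes, both without a call. Sdc3, best known from neural tissue, read 1.76 and 1.32 on the adult arrays, against 2.02 and 2.97 on the embryonic arrays. The groups did not overlap, but the embryonic arrays lay far apart, and the difference of -0.95 (SE 0.43) did not pass in limma's fit. It was -0.48 without embryonic array 2 and -1.43, with a call, without embryonic array 1.

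Sdc1, the main syndecan of epithelial cells and of plasma cells, read 2.65 and 2.49 on the adult arrays, against 2.18 and 2.75 on the embryonic arrays. The adult values fell between the embryonic ones, and the difference was 0.10 (SE 0.35). Sdc2, a syndecan of mesenchymal cells, read 2.24 and 1.99 on the adult arrays, against 2.35 and 2.19 on the embryonic arrays, with overlapping groups and a difference of -0.15 (SE 0.31). Against the median of all genes tested, the differences of Sdc1 and Sdc2 were higher by 0.90 and 0.64. Their sign depends on the scaling: with each array centred on the tested genes Sdc1 stood at 0.79 and Sdc2 at 0.53, and with centring on the median of all probes at -1.08 and -1.34.

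Values of 1 syndecan minus another on the same array do not depend on a shift of a whole array, but do depend on other processing. Sdc4 and Sdc1 differed between the ages by -0.54 and 0.15 with normexp, and by -1.41 and 0.94 with quantile normalization. Sdc4 minus Sdc1 was -3.19 and -3.68 on the adult arrays, against -1.73 and -2.27 on the embryonic arrays, a shift of -1.43. Sdc3 minus Sdc1 was -0.89 and -1.17 on the adult arrays, against -0.16 and 0.21 on the embryonic arrays, a shift of -1.06. Sdc4 and Sdc3 were thus lower relative to Sdc1 on both adult arrays than on either embryonic array. Sdc2 minus Sdc1 was -0.40 and -0.50 on the adult arrays, between the 0.18 and -0.56 of the embryonic arrays. These signed values mix the brightness of different probes, so only the shift between ages can be read from them. With 2 arrays a group, an exact permutation test cannot give a two-sided p below 0.333, and none is given.

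All 4 glypicans had a lower mean in adult spheres, with both adult arrays below both embryonic ones, and differed in size. Gpc3, an X-linked glypican that restrains growth and is best known from embryonic tissues, read -0.60 on each adult array, against 0.51 and 1.71 on the embryonic arrays. The difference was -1.72 (SE 0.47), or 3.29-fold more signal in embryonic spheres. The embryonic arrays lay far apart and the adult arrays close together. The difference was -1.12 without embryonic array 2, and -1.03 with no call after centring on the tested genes. Gpc6 read -2.10 and -1.65 on the adult arrays, against -0.59 and -0.94 on the embryonic arrays, a difference of -1.11 (SE 0.34), which shrank to -0.45 with normexp and to -0.43 with centring on the tested genes, both without a call. Gpc6 was called under 8 of 17 alternatives. Its spots were dim, at 1.92 and 1.58 times the lowest signal that passed the background call in adult spheres, against 5.89 and 1.72 times in embryonic spheres.

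Gpc4, which lies beside Gpc3 on the X chromosome, read -1.25 and -1.05 on the adult arrays, against -0.38 and -0.51 on the embryonic arrays, a difference of -0.71 (SE 0.31). Gpc1, a glypican that binds FGF, read 3.96 and 3.91 on the adult arrays, against 4.30 and 4.65 on the embryonic arrays, a difference of -0.54 (SE 0.32). Neither passed in limma's fit, and both differences were smaller than the median shift of all genes. Gpc3 minus Gpc1, free of shifts of a whole array but not of other processing, was -4.56 and -4.51 on the adult arrays. On the embryonic arrays it was -3.79 and -2.93, which gives a shift of -1.18. For Gpc4 and Gpc6 the same quantity overlapped between the ages, with shifts of -0.17 and -0.57. The remaining glypicans Gpc2 and Gpc5 did not exceed background on all arrays of an age and were not tested.

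**Figure D3:**
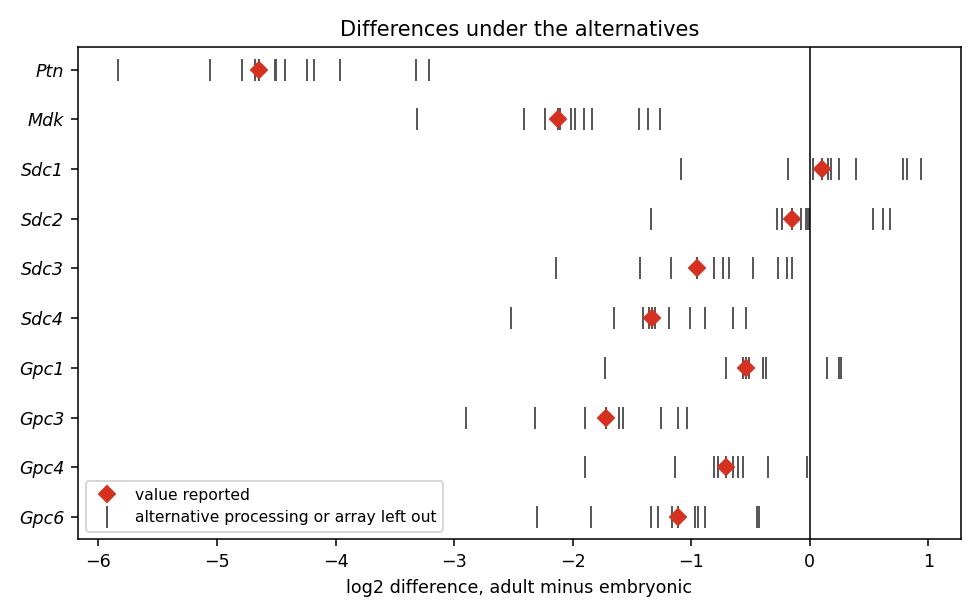
Log2 difference, adult minus embryonic (horizontal axis), of each of the 10 genes as reported (diamond) and under 17 alternatives (ticks), among them other scalings, filters and each array left out. All ticks of Ptn, from -5.84 to -3.21, and of Mdk, from -3.31 to -1.26, lie below 0, while those of Sdc1, Sdc2 and Gpc1 fall on both sides.

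Ptn, Mdk, Sdc3, Sdc4, Gpc3, Gpc4 and Gpc6 kept a negative difference under all 17 alternatives. The median over all genes tested was negative under each as well, from -1.98 to -0.11. Gpc4 shrank to -0.026 with centring on the tested genes and Sdc3 to -0.15 with quantile normalization. Sdc1 was negative under 2 of the 17 alternatives and Sdc2 and Gpc1 were positive under 3 each. With each array centred on the tested genes 2 of the 10, Ptn (-3.96, SE 0.39) and Mdk (-1.44, SE 0.33), passed as lower in adult spheres, and 9 did with centring on the median of all probes. Without adult array 1 or without adult array 2 none of the 10 was called by limma, nor was any other gene, although 3 of the 10 had an unadjusted p under 0.05 in either case.

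The genes whose profile over the 4 arrays was most like that of Ptn were found by the root mean square difference of gene-centred log2 signals, over the 9597 other genes above background on all 4 arrays. They were Sema5a (0.26), Gdf10 (0.28), Wnt4 (0.35), F3 (0.39) and Selenbp1 (0.41). Sema5a encodes a semaphorin, Gdf10 a TGF-beta family factor, Wnt4 a Wnt ligand and F3 tissue factor. Their differences were -4.22 (SE 0.36), -4.22 (SE 0.34), -3.98 (SE 0.45), -4.10 (SE 0.47) and -5.16 (SE 0.40). With the probes of each gene averaged, F3 stood at -2.60 (SE 0.49), Wnt4 at -3.53 (SE 0.45) and Ptn at -4.42 (SE 0.43), while Sema5a, Gdf10 and Selenbp1 kept their differences. A likeness over 4 arrays is mostly a likeness in the size of 1 difference.

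Other genes of the system, a list of 61 that holds none of the 10, were mostly lower in adult spheres among those that passed. Of 47 tested, 20 were called lower and 6 higher (limma, Benjamini-Hochberg adjusted p under 0.05 over all 13660 genes), against 36.2% and 17.5% of all genes tested. The median difference was -0.88, against -0.80 over all genes. Of the 39 with signal on all 4 arrays 19 were lower and 2 higher, against 43.8% and 2.35% of all such genes. The other 4 of the 6 higher calls are of genes that did not pass the background call on some array. For B4galt7 this is because its spot on adult array 2 was left out as an outlier. The counts per list are read against the same shares, and none is taken as particular to its list. With each array centred on the tested genes 6 were lower and 8 higher, so the balance of directions depends on the scaling, while Ptprz1, Ncl, Agrn, Col18a1, Sulf2 and Ezr stayed lower. Without either adult array no gene at all was called. The differences of the called genes named below then stayed within 1.5 times of those given, except that of Itga4, which was 0.84 without adult array 2. B4galt7 has no value without adult array 1.

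Among the receptors for pleiotrophin and midkine, 3 of 10 tested fell and 2 rose in adult spheres, or 3 and 1 of the 9 above background on all 4 arrays. Ptprz1, the receptor phosphatase that carries chondroitin sulphate, read 0.62 and 0.15 on the adult arrays, against 2.52 and 3.095 on the embryonic arrays, a difference of -2.43 (SE 0.37, adjusted p = 0.00946). Ncl, for nucleolin (-1.90, SE 0.35, adjusted p = 0.0123), and the laminin receptor subunit gene Itga6 (-1.50, SE 0.32, adjusted p = 0.0163) fell too, and the call of Itga6 was lost after centring on the tested genes. The integrin genes Itgb3 (0.97, SE 0.31, adjusted p = 0.0422) and Itga4 (1.38, SE 0.45, adjusted p = 0.048) rose, with Itga4 above background on 1 of the 2 embryonic arrays. Itgb3 turned to -0.21 with centring on the median of all probes, and Itga4 was 0.16 with normexp and turned to -0.23 in the deposited value table, and none of these 3 values passed. Itgb3 was called under 10 of 17 alternatives and Itga4 under 5 of 16. The receptor kinase gene Alk was not well above background on any array, and Ltk, its relative, on at most 1.

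Of 10 tested genes for initiation and polymerisation of the heparan sulphate chain 4 fell and 1 rose, a share near that of all genes, with a median of -0.76. All 4 that fell were among the 7 above background on all 4 arrays. The 1 that rose was not, since it has no value on adult array 2. The widest differences were those of the xylose kinase gene Fam20b (-2.05, SE 0.41, adjusted p = 0.0141), Extl2 (-1.52, SE 0.32, adjusted p = 0.0161) and the xylosyltransferase gene Xylt2 (-1.44, SE 0.35, adjusted p = 0.0211), and these 3 calls were lost after centring on the tested genes. B4galt7, a linker galactosyltransferase gene, was called higher (1.45, SE 0.41, adjusted p = 0.04) on 1 adult array, since its spot on the other was an outlier, and that lone value is assumed to vary like the embryonic ones. It stood at -0.075 (adjusted p = 0.912) when arrays were centred on the median of all probes.

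Of 11 tested genes for sulphation and epimerisation, 3 fell and 2 rose. Of the 7 above background on all 4 arrays 2 fell and 0 rose, since Hs3st6, Ndst4 and Hs3st1 entered the test through the age in which they were high. Hs3st6 (-1.88, SE 0.54, adjusted p = 0.0331), the epimerase gene Glce (-1.50, SE 0.32, adjusted p = 0.0157) and the N-deacetylase and N-sulphotransferase gene Ndst1 (-1.33, SE 0.30, adjusted p = 0.0188) fell, all calls lost after centring on the tested genes, and Hs3st6 was above background on 1 of the 2 adult arrays. Ndst4, whose spots did not exceed background in embryonic spheres, was higher in adult spheres by a factor of at least 1.89. Its call in limma's fit (adjusted p = 0.0115) belongs to a difference of 3.13 and does not test that bound. That difference rests on embryonic signals below background, so nothing is read from the call, which was lost with normexp (adjusted p = 0.136). With the probes of each gene averaged, Ndst1 stood at -0.51 (adjusted p = 0.197). Hs3st1 rose by 1.97 (SE 0.64, adjusted p = 0.0466), with 1 of the 2 embryonic arrays above background, and was called under 6 of 16 alternatives, its difference shrinking to 0.47 with normexp, 0.52 in the deposited value table, 0.78 when arrays were centred on the median of all probes and 1.03 without embryonic array 2.

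The extracellular sulphatases, which remove sulphate groups from finished chains, moved in opposite directions. Sulf1 read 2.53 and 2.46 on the adult arrays, against 1.25 and 0.17 on the embryonic arrays, and rose by 1.79 (SE 0.44, adjusted p = 0.0229). Sulf2 read 1.28 on each adult array, against 3.07 and 3.92 on the embryonic arrays, and fell by 2.22 (SE 0.39, adjusted p = 0.0117). Sulf1 minus Sulf2, free of shifts of a whole array, was 1.26 and 1.18 on the adult arrays, against -1.81 and -3.76 on the embryonic arrays. Sulf2 was called after centring on the median of all probes and Sulf1 was not, at 0.60 (adjusted p = 0.298).

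In the same list of 5 tested genes the heparanase gene Hpse (-1.28, SE 0.33, adjusted p = 0.0255) and the sheddase gene Adam10 (-1.34, SE 0.34, adjusted p = 0.0236) also fell, both calls lost after centring on the tested genes. Notum, also of that list, did not pass (-0.43, SE 0.32, adjusted p = 0.278). Among 5 other carriers of heparan sulphate 3 fell. They were the basement membrane genes Agrn, for agrin (-2.55, SE 0.32, adjusted p = 0.00757), and Col18a1, for collagen XVIII (-1.98, SE 0.30, adjusted p = 0.00934), and the TGF-beta co-receptor gene Tgfbr3 (-1.89, SE 0.34, adjusted p = 0.0122), whose call was lost after centring on the tested genes. Hspg2, for perlecan, did not pass (-0.11, SE 0.46, adjusted p = 0.85).

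Of 6 genes for cytoplasmic partners of syndecans 4 fell. They were the membrane linker gene Ezr (-2.18, SE 0.41, adjusted p = 0.0127), the kinase gene Prkca, whose protein binds the tail of syndecan-4 (-1.50, SE 0.30, adjusted p = 0.0146), Gipc1 (-1.31, SE 0.31, adjusted p = 0.0208) and Sdcbp, for syntenin (-1.08, SE 0.31, adjusted p = 0.0327). Of these, Ezr alone kept its call with centring on the tested genes, and Sdcbp was called under 7 of 17 alternatives.

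**Figure D4:**
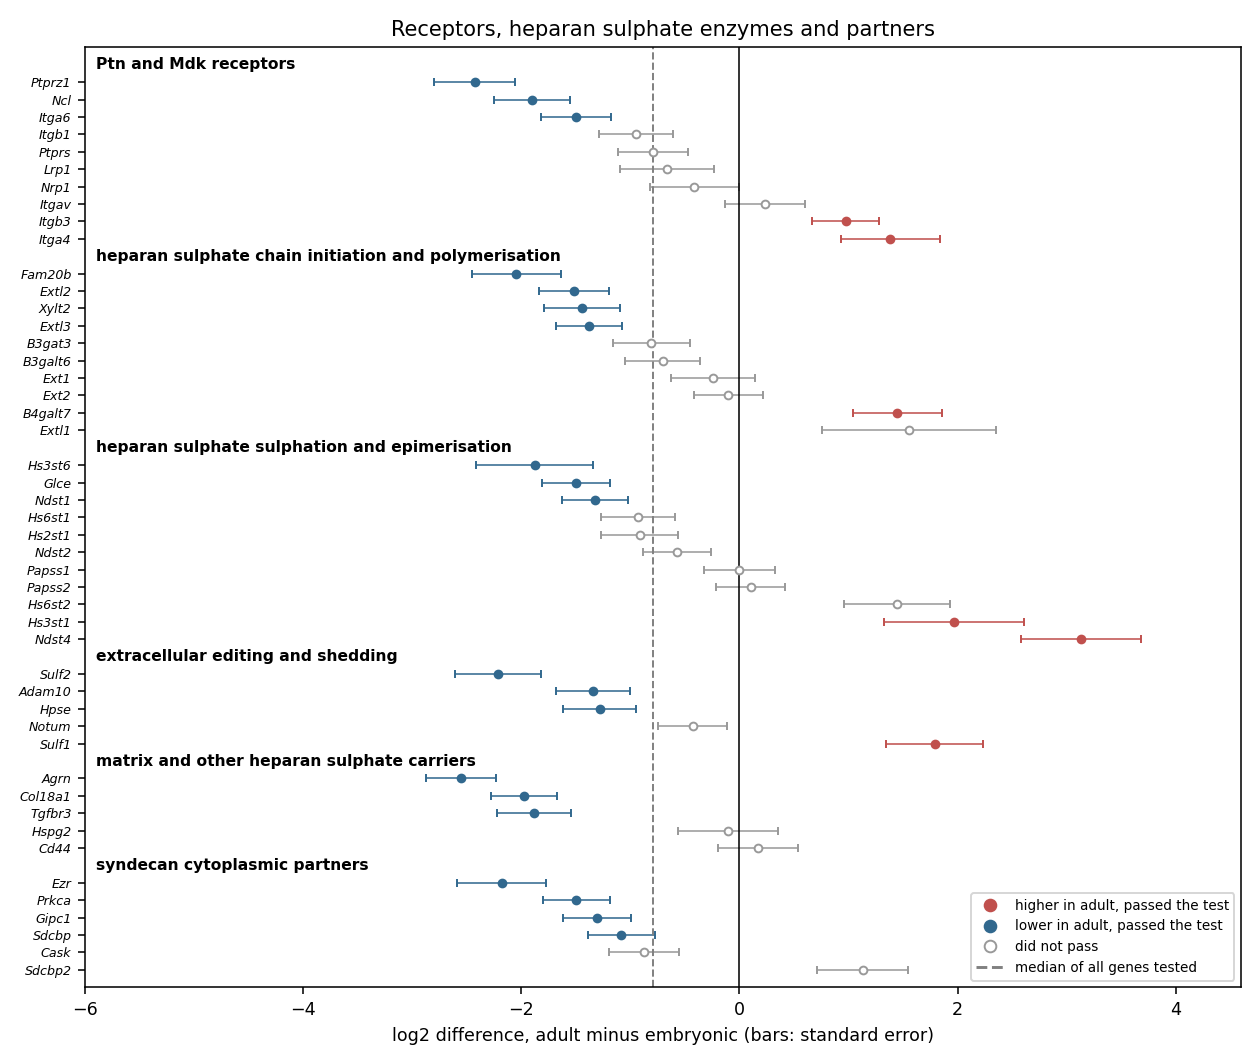
Log2 difference, adult minus embryonic (horizontal axis), with standard errors, of the 47 tested genes of the system, by list; filled points passed at an adjusted p of 0.05 in limma and the dashed line is the median of all genes tested, -0.80. Sulf1 at 1.79 and Sulf2 at -2.22 lie on opposite sides of 0.

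Some markers of cell types also differed between the ages. The counts of called markers are read against the 36.2% of all genes tested that were lower and the 17.5% that were higher. The summed signal of the 10 thymic epithelial markers, in multiples of the array's 75th percentile, was 120 to 205 on the adult arrays and 393 to 563 on the embryonic arrays. These sums did not overlap, and 5 of 8 tested markers were lower and 1 higher in adult spheres. The summed fibroblast markers were at 425 to 428 on the adult arrays and 461 to 800 on the embryonic arrays, with 2 of 10 lower and 1 higher, and did not overlap either. The median difference of the tested markers was -1.59 for epithelium and -0.23 for fibroblasts, against -0.80 over all genes tested. All such sums move with the scaling of the arrays, and their overlap under other scalings was not tested. Macrophage markers summed to 76.3 to 106 on the adult arrays and 105 to 107.4 on the embryonic arrays, with 3 of 7 tested lower and 1 higher. Glial markers summed to 17.4 to 18.1 on the adult arrays and 15.7 to 19.4 on the embryonic arrays, with none of 4 tested called, and Foxd3 and Tfap2b were below background on all 4 arrays.

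T lineage markers summed to 8.58 to 8.98 on the adult arrays and 10.1 to 11.9 on the embryonic arrays, with 3 of 7 tested higher in adult spheres and Cd3d and Rag1 below background on all 4 arrays. Endothelial markers summed to 18.1 to 20.3 on the adult arrays and 16.6 to 26.6 on the embryonic arrays, with 5 of 8 tested higher in adult spheres. B lineage and plasma cell markers, which bear on Sdc1, summed to 19.1 to 22.4 on the adult arrays and 25.2 to 30.9 on the embryonic arrays, with 2 of 3 tested higher in adult spheres. Of these markers Ms4a1, Jchain, Irf4 and Tnfrsf17 were below background on all 4 arrays. The background call held on both embryonic arrays for 3 T lineage, 2 endothelial and 1 B lineage markers of the 10 listed in each. On both adult arrays it held for 7, 8 and 3. Most of those tested thus entered the test through the adult arrays alone, so nothing is read from their higher calls. Of all genes tested 17.5% were called higher, and 2.35% of those above background on all 4 arrays. The part of these cell types in the differences of Ptn, Mdk, the syndecans and the glypicans was not tested.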

How the data were processed

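RNA of 4 thymosphere samples was labelled with Cy3 (25 ng of total RNA each, per the labels' protocols) and hybridised to 1-colour Agilent arrays. Per the file headers, the intensity values were extracted with Agilent Feature Extraction 10.7.3.1, background-subtracted and spatially detrended within each array, with no step between arrays. The deposited value table is in linear intensity units, with medians of 34.4 and 35.0 for the adult columns and 35.7 and 35.1 for the embryonic columns, and an equal maximum in each. It matched each array's own scanner signal most closely (r = 0.994 to 0.998 on the log2 scale). Its centring is unknown, and it was used as an alternative alone.

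Each processed signal was divided by its array's 75th percentile over all non-control spots, which was 132 and 66.0 in adult samples, against 126 and 61.5 in embryonic samples, and log2 was taken. Outlier spots were left out (185 and 2756 in adult samples, against 120 and 95 in embryonic samples), spots of a probe were averaged, and no spot was saturated. Of 55681 probes 28026 (50.3%) were named through RefSeq accessions (annotation GRCm38.p6, used for names and promoter windows, while the array design is on mm9). A gene was tested on its brightest probe, probes measured on all 4 arrays first, among probes that exceeded background in all samples of 1 age or more. Adult minus embryonic was fitted over 13660 genes with limma 3.58.1 in R 4.3.3, without covariates, with Benjamini-Hochberg adjustment, and the fit was tested on simulated data. A gene below background on both arrays of a group has a bound, against the higher of its own signal and the lowest signal well above background on each array. The array number limits the precision.

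The genes, lists and tests were chosen with earlier results of these data known. All 10 family genes are named, then up to 3 called genes per list and direction by size of difference, 10 genes named whatever their values (Gpc2, Gpc5, Ptprz1, Alk, Sulf1, Sulf2, Hpse, Notum, Hspg2 and Sdcbp) and the 5 genes most like Ptn. Ltk and the markers that were below background lie outside that rule and were named with their values in view. The value of 1 listed marker is not reported here. Normexp used the median spot signal, since the files have no mean signal, and an offset of 50. Smaller differences of dim genes under normexp thus cannot be ascribed to the background correction alone.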

Additional observations from a re-analysis of the deposited data

How the results depend on the processing

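The counts of called genes depended on scaling and filter, and on each adult array. In the fit reported, 4939 of all genes, 5 of the 10 family genes and 20 of the other genes of the system were lower in adult spheres, and 2390, 0 and 6 were higher, so that 32.6% of calls were higher. Normexp gave 2579 and 949 over all genes (lower and higher), 3 family genes lower (not Sdc4 and Gpc6), and 2 others higher. Quantile normalization gave 2893 lower over all genes and 11 others lower. Centring on the median of all probes gave 9827 lower and 1694 higher over all genes (14.7% higher), 9 family genes lower, and 35 others lower with 1 higher. Centring on the tested genes gave 968 lower and 2797 higher (74.3% higher), 2 family genes lower (not Sdc4, Gpc3 and Gpc6), and 6 others lower. Without a filter on dim probes 857 were lower and 1687 higher (66.3% higher), with 2 family genes lower and 4 and 2 others. With signal asked on all 4 arrays 329 were higher (5.75%) and 3 others, and with a robust prior 3 others were higher. The median difference of the tested genes was -0.80, and ran from -1.98 (centring on all probes) to -0.11 (centring on the tested genes).

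Leaving out 1 array at a time, limma called 0 to 5070 genes lower and 0 to 2610 higher, 0 to 5 family genes lower, and 0 to 21 others lower with 0 to 6 higher. The zeros came without adult array 1 or 2, where 6453 and 5526 genes had an unadjusted p under 0.05, among them 3 and 3 family genes and 19 and 22 others; no other tool was run. The 75th percentile without outlier spots, chosen after seeing the data, was 54.1 on adult array 2 in place of 66.0 and gave 3989 lower and 2442 higher, with 4 family genes lower. With the replicate block, which rests on numbers of the titles that pair the arrays only by name (r of same-numbered deviations 0.07), 4659 were lower and 2372 higher, with 4 family genes lower (all but Gpc6) and 20 others lower with 5 higher. Reversed signs among the other genes named were B4galt7 (-0.075) and Itgb3 (-0.21) with centring on all probes and Itga4 (-0.23) in the deposited value table. Of genes that had not passed, Notum turned to 0.45, 0.26 and 0.41 and Hspg2 to 0.77, 0.58 and 0.75 with quantile normalization, centring on the tested genes and the deposited table, and Hspg2 also to 0.039 with the percentile without outlier spots and to between -0.57 and 0.36 with 1 array left out. Of the other lower genes named, quantile normalization ended the calls of Ncl, Itga6, Tgfbr3, Adam10, Gipc1, Sdcbp, Xylt2, Glce and Ndst1, and normexp those of Hpse, Fam20b, Hs3st6 and Sdcbp. The cause of these changes was not tested.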
